A study of Mus musculus with 4 samples.

Results

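The guanylate-binding proteins are a family of interferon-inducible GTPases, and 10 members were followed here by their gene symbols in mouse heart grafts: Gbp2, Gbp2b, Gbp3, Gbp4, Gbp5, Gbp6, Gbp7, Gbp8, Gbp9 and Gbp10. All 10 were found among the 34097 genes counted. Droplet-based RNA sequencing of single cells was applied to transplanted hearts taken at day 5. There were 3 allogeneic libraries (replicates 1, 2 and 3), from grafts between genetically different animals, and 1 isogeneic library (replicate 2, called the isograft below), from a graft between genetically identical animals. The labels name no strain, age, sex, drug or altered gene for either group, and do not say whether each library is a separate animal or a pool. P-values therefore measure only the spread between these libraries, which may be technical. In a transplant the vessel wall and stroma come from the donor heart while infiltrating leukocytes come from the recipient, so in the allografts cell class and genetic origin cannot be told apart.

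Guanylate-binding proteins are made mainly in response to interferon-gamma, which T cells and NK cells secrete. Its receptor signals through the kinases Jak1 and Jak2 and acts on promoters that hold gamma-activated sites (GAS). It also induces the transcription factor Irf1, which binds interferon-stimulated response elements (ISRE). The proteins assemble on pathogen vacuoles and bacterial surfaces, break them open together with immunity-related GTPases, and feed inflammasomes and the caspase encoded by Casp4. They are best known from infected macrophages, but endothelial cells and fibroblasts also make them after interferon treatment.

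The members lie in clusters on chromosomes 3 and 5 of the mm10 build (GENCODE M21 annotation). Gbp5, Gbp7, Gbp3, Gbp2b and Gbp2 lie in that order on the plus strand of chr3:142493978-142638008, a stretch of 144.0 kb. Deletion of this cluster in mice is known to weaken resistance to Toxoplasma. Gbp8, Gbp9, Gbp4, Gbp10 and Gbp6 lie on the minus strand of chr5:105014150-105293698, a stretch of 279.5 kb. The annotated spans of Gbp4, Gbp8 and Gbp9 overlap on the same strand, where they share 60 to 61 exonic bases, at most 1.8% of the exons of any of them. Transcripts of some members are alike. Over the last 400 bases, which 3′ libraries read, identity was 88.8% between Gbp6 and Gbp8, 75.8% between Gbp4 and Gbp9 and 62.8% between Gbp2 and Gbp2b, against 48.0% to 60.2% for the other pairs. Over whole transcripts these 3 pairs had 81.3%, 84.0% and 68.8%. Counts of the closest pairs are uncertain to the extent that reads were split between copies or dropped.

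Promoter sequence was at hand for the 5 members on chromosome 3 (RefSeq, build GRCm38.p6, 250 bases before each annotated start, plus strand). Those of Gbp2, Gbp2b and Gbp5 are shown because these members led the family in different cell classes. Capitals mark matches on either strand to the GAS pattern TTCNNNGAA or to the ISRE core GAAANNGAAA (TTTCNNTTTC on the other strand), and no marked sites overlap.
Gbp2, chr3:142620413-142620662: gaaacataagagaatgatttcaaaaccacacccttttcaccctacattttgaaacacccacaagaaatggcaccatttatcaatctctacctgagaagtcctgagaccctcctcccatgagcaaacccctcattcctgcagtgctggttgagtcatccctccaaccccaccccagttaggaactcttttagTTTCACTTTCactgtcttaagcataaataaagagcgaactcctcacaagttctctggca
Gbp2b, chr3:142594597-142594846: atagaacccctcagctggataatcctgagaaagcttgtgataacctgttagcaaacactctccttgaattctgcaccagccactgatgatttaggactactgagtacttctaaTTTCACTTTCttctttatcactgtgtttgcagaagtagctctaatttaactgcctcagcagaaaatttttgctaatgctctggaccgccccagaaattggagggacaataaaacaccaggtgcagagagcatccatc
Gbp5, chr3:142496684-142496933: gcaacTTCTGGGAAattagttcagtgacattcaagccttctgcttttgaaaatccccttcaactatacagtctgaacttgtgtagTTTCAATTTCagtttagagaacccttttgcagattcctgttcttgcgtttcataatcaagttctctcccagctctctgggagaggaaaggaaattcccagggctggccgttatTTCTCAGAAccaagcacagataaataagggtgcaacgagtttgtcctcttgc
Gbp2 and Gbp2b each held 1 ISRE core and no GAS in this window, with the core starting 59 bases before the start in Gbp2 and 137 bases before it in Gbp2b. Gbp5 held 2 GAS patterns, at 245 and 52 bases, and 1 ISRE core at 165 bases. Its window lies inside its GENCODE span, which begins at 142493978. Gbp7, not shown, likewise held 2 GAS patterns, at 106 and 87 bases, and 1 ISRE core at 53 bases. For Gbp3, also not shown, the window chr3:142559794-142560043 held 2 ISRE cores and no GAS, and the window chr3:142560106-142560355 held no match. The GENCODE span of Gbp2 begins at 142620602 and that of Gbp3 at 142560026. The ISRE core of Gbp2 and the second Gbp3 window therefore lie inside those spans. Of 32851 mouse promoters of the same length, 7.0% held the GAS pattern, 3.0% the ISRE core and 0.3% both. A match describes letters only.

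The libraries held 51054446, 63434265 and 51463909 unique molecular identifiers (UMIs, 1 per captured transcript) for allogeneic replicates 1 to 3, and the isograft library held 100038951. After filtering, 30895 cells remained, and 23472 of them (76.0%) were placed in a class when they carried at least 3 of the 8 markers of that class with a lead of at least 2 over every other class. A class is a set of cells passing such a gate, and 16.5% of the placed cells lay right at its limit. Phagocytes (monocytes and macrophages together) numbered 2319, 3446 and 1366 in the allogeneic libraries, against 3264 in the isograft, endothelial cells 264, 732 and 615 against 1166, and fibroblasts 30, 71 and 1155 against 4420. Neutrophils numbered 59, 98 and 389 against 285, and T cells 979, 1567 and 425 against 36. Heart muscle cells, which define the organ, numbered 1, 14 and 1 against 0 and were not compared. Allogeneic replicate 3 stood apart, with a chi-square per gene of 276 and 295 against replicates 1 and 2, which differed from each other by 14.2. Between 7 and 30 cell barcodes were shared by any pair of libraries. Levels are UMIs per 1000000 UMIs of a class in a library (CPM). Each transcript gives 1 UMI whatever its length, and on that ground levels of members are set side by side. Limits are the closest pairs named above and any difference between members in how well the 3′ end is captured, annotated and mapped, which was not checked.

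In whole allografts the family took 2015, 2106 and 2792 CPM in replicates 1, 2 and 3, against 72.3 CPM in the isograft. Every allogeneic library lay above the isograft. In bulk sums of this kind more cells of a class and more transcript per cell cannot be told apart, so the sums were separated by class.

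The isograft gives the baseline of each member in a heart without an alloimmune reaction. It is 1 library, so intervals are exact 95% Poisson intervals that cover counting error only. The family stood highest in endothelial cells among the large classes, at 250 CPM, against 63.2 CPM in phagocytes, 116 CPM in neutrophils and 51.6 CPM in fibroblasts. The 36 T cells of the isograft gave 379 CPM on 43 UMIs.

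In isograft endothelial cells Gbp9 and Gbp7 led the family. Gbp9 reached 59.6 CPM (53.8 to 65.8) and Gbp7 56.4 CPM (50.8 to 62.4). Gbp7 is known in mouse macrophages for assembling the oxidase that makes reactive oxygen. Gbp2b, formerly called Gbp1, stood at 27.1 CPM (23.3 to 31.4), Gbp3 at 25.9 CPM (22.2 to 30.1) and Gbp4 at 24.1 CPM (20.5 to 28.1). Gbp6 and Gbp10, both known from bacterial killing in mouse macrophages, were near 0, with 2 and 3 UMIs. The baseline of endothelial cells was thus made of 8 members, the lowest of them Gbp8 at 12 CPM, with a pair of members all but silent.

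Isograft phagocytes had another baseline. Gbp5, which promotes assembly of the NLRP3 inflammasome, stood at 17.6 CPM (15.8 to 19.5) and Gbp3 at 16.2 CPM (14.5 to 18.0), which made up 27.8% and 25.6% of the family's UMIs. Gbp4 was at 0.924 CPM (0.556 to 1.44) and Gbp8 at 0.535 CPM (0.267 to 0.957). These intervals lie far below those of the same members in endothelial cells. Gbp9, the leading member in endothelial cells, was at 4.33 CPM (3.48 to 5.33) in phagocytes. In fibroblasts Gbp7 led, at 13.4 CPM (12.4 to 14.4), followed by Gbp2, a member known for restricting Toxoplasma in mice, at 10.4 CPM (9.54 to 11.3). In neutrophils Gbp2b led, at 42.1 CPM (25.7 to 64.9) on 20 UMIs, while Gbp4, Gbp6 and Gbp10 had none, which allows up to 6.31 CPM each by the floor of 3 UMIs (upper Poisson limit 7.76 CPM).

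In the 36 isograft T cells Gbp4 stood at 88.1 CPM (42.2 to 162) on 10 UMIs, Gbp3 at 79.3 CPM (36.3 to 151) on 9 and Gbp7 at 70.5 CPM (30.4 to 139) on 8. These intervals lie above the isograft levels of Gbp4 and Gbp3 in phagocytes, endothelial cells and fibroblasts, and that of Gbp7 overlaps the endothelial one. Markers of fibroblasts (4 of 4 detected) reached 23.2% of their own fibroblast level in these T cells. Fibroblasts themselves had 1.12 CPM of Gbp4.

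**Figure D1:**
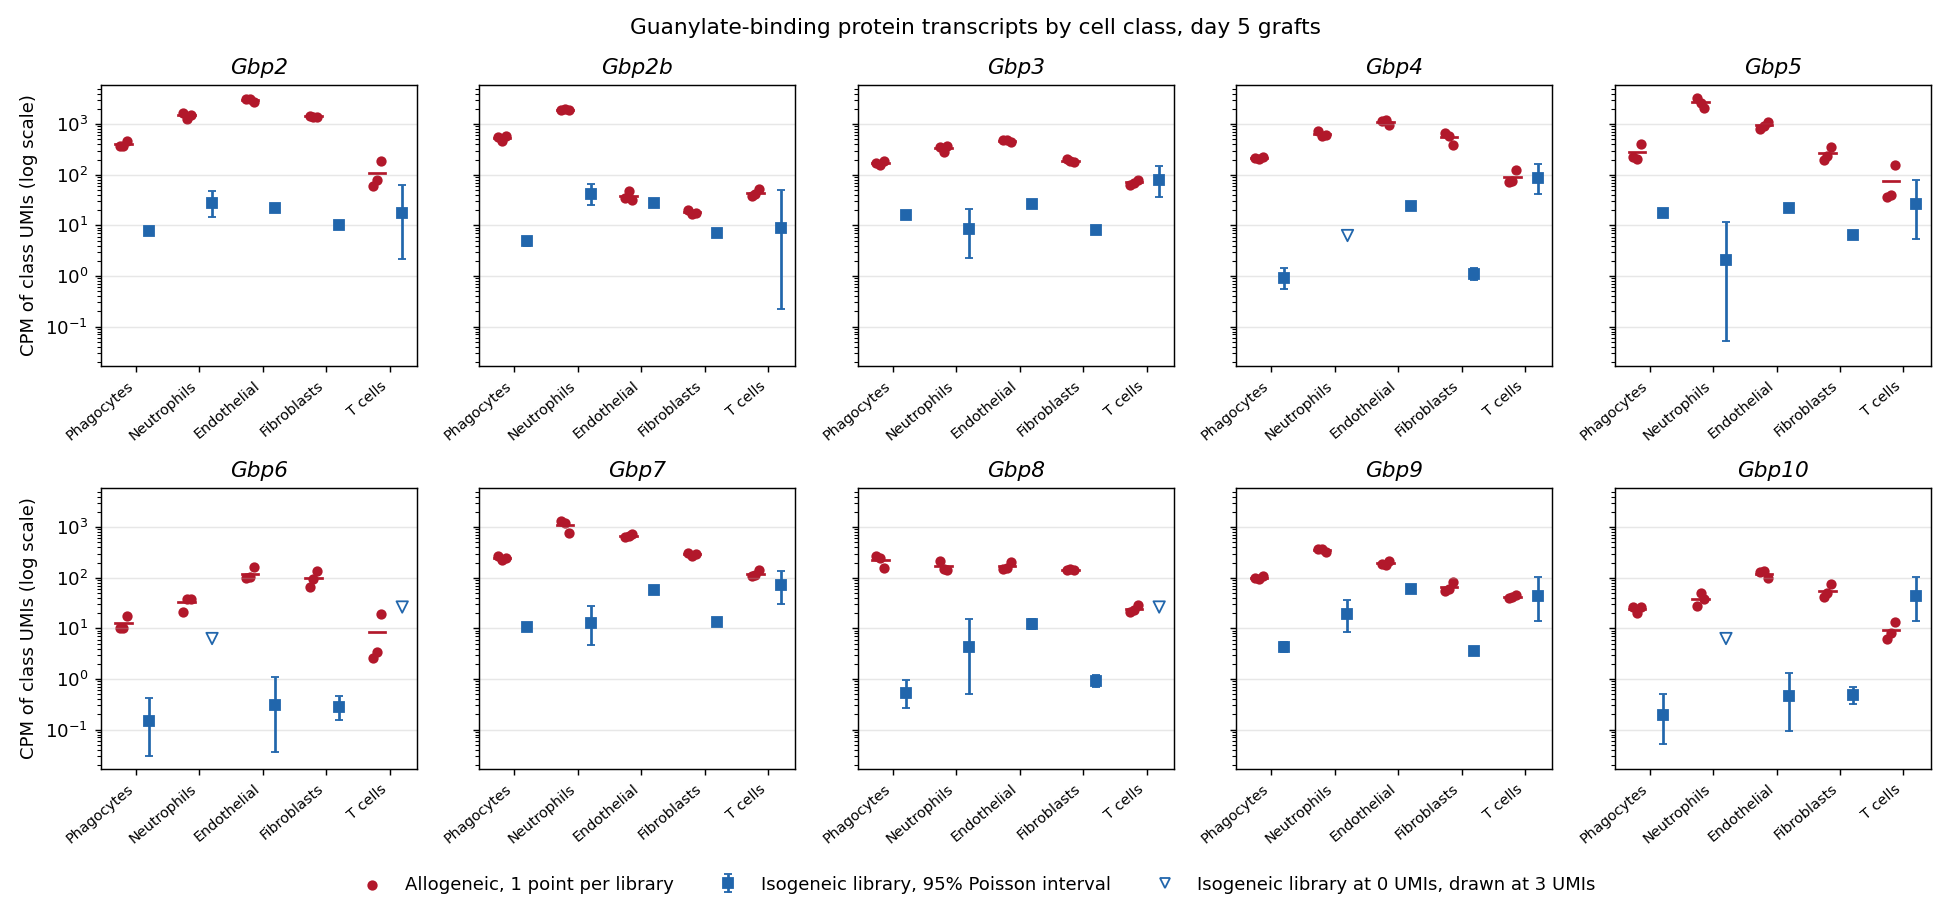
CPM of each member (vertical axis, log scale) by cell class (horizontal axis), with 1 red point per allogeneic library and a bar at their mean, and a blue square with its 95% Poisson interval for the isograft. Open triangles stand at 3 UMIs where the isograft had none. Red points lie far above blue squares in phagocytes, neutrophils, endothelial cells and fibroblasts, with small gaps for Gbp2b in endothelial cells and fibroblasts and for Gbp9 in endothelial cells, while T cells show little separation.

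Whether each member was higher in allogeneic grafts was tested class by class with the edgeR quasi-likelihood test on UMIs summed per library and class, with Benjamini-Hochberg adjustment over all genes tested and a threshold of 0.05. Every SE is approximate, taken from the log2 change and the F statistic. The lone isograft is assumed to vary like the allogeneic libraries. An exact permutation test over 4 libraries cannot go below p = 0.25.

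In phagocytes all 10 members rose, where 1.63% of the 16784 genes tested rose and 0.429% fell. The median log2 change of the members was 6.1, against -0.0036 over all genes. Gbp2b had 552, 471 and 577 CPM in allogeneic replicates 1, 2 and 3, against 4.81 CPM in the isograft, a log2 change of 6.86 (SE 0.30, edgeR adjusted p = 0.0154). Gbp8 had 274, 241 and 153 CPM in the allogeneic libraries, against 0.535 CPM on 11 UMIs in the isograft, a change of 8.77 (SE 0.70, edgeR adjusted p = 0.0323). Gbp2b thus led the family in allograft phagocytes, in place of Gbp5 and Gbp3, which led in the isograft. Gbp5 had 220, 209 and 400 CPM in the allogeneic libraries, against 17.6 CPM, and rose by 4.03 (SE 0.52, edgeR adjusted p = 0.0470). Its value was highest in replicate 3, and the call was lost with total UMIs as the only scaling (edgeR adjusted p = 0.0592). Gbp3, a member whose baseline was also high, rose by 3.48 (SE 0.21, edgeR adjusted p = 0.0212), the smallest change of the 10 in this class. Gbp2 had 374, 366 and 467 CPM, against 7.78 CPM, and Gbp4 215, 205 and 222 CPM, against 0.924 CPM. Gbp2 rose by 5.76 (SE 0.29, edgeR adjusted p = 0.0166) and Gbp4 by 7.92 (SE 0.27, edgeR adjusted p = 0.0154). The lowest allogeneic library lay above the isograft for each of the 10 members. The share of all genes with that order was not counted, so this adds no support to the calls.

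The phagocyte calls of members were lost in part without allogeneic replicate 2 and in full without replicate 1. Without it no gene and no member passed (2072 genes had an unadjusted p under 0.05), although the log2 changes barely moved and the members' adjusted p was 0.0504 to 0.0917. Without replicate 2 the count was 7, without replicate 3 it was 10, and DESeq2 called all 10. With phagocytes limited to those carrying C1q UMIs, 87 genes were called in place of 345, and the calls for Gbp5 (edgeR adjusted p = 0.0674) and Gbp6 (edgeR adjusted p = 0.0685) were lost.

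In neutrophils all 10 members rose as well, where 4.46% of 4982 genes rose and 0.181% fell. Of the members only Gbp2b reached the limit of the count filter in the isograft, and the others entered the test through the allogeneic libraries. Gbp4, Gbp6 and Gbp10 had 0 UMIs in the isograft and could only rise. Gbp5 had 3330, 2577 and 2128 CPM in allogeneic replicates 1, 2 and 3, against 2.10 CPM on 1 UMI in the isograft, an allogeneic over isogeneic ratio of 1101 with a counting interval of 197 to 43484. Its edgeR adjusted p was 9.6e-05. Gbp2b had 1945, 1966 and 1867 CPM, against 42.1 CPM, and rose by 5.74 (SE 0.50, edgeR adjusted p = 2.0e-04). The allogeneic libraries were close to each other and far from the isograft. Gbp7 had 1343, 1181 and 770 CPM, against 12.6 CPM on 6 UMIs, and Gbp2 1658, 1265 and 1540 CPM, against 27.3 CPM on 13 UMIs. Gbp4 had 728, 595 and 615 CPM in allogeneic replicates 1, 2 and 3. Its allogeneic mean was 102-fold the isograft floor of 3 UMIs, that of Gbp10 6.14-fold and that of Gbp6 5.15-fold. The lowest allogeneic library was at 94.3-fold, 4.44-fold and 3.33-fold of that floor for Gbp4, Gbp10 and Gbp6. With second-class cells left out the calls for Gbp6 (edgeR adjusted p = 0.467) and Gbp10 (edgeR adjusted p = 0.564) were lost, and that for Gbp10 also with the stricter gate (edgeR adjusted p = 0.0700) and without replicate 3 (edgeR adjusted p = 0.119). The median log2 change was 6.31, or 5.62 with Gbp4, Gbp6 and Gbp10 at the ratio of their mean to that floor. With total UMIs as the only scaling, the median of all genes moved from 0.0098 to -0.26 in this class, and all 10 members stayed above it.

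In endothelial cells 9 of 10 members rose, where 2.42% of 13201 genes rose and 0.629% fell, with a median log2 change of 4.85. Gbp2 had 3192, 3108 and 2771 CPM in allogeneic replicates 1, 2 and 3, against 22.4 CPM in the isograft, a change of 7.13 (SE 0.33, edgeR adjusted p = 0.0033). This was the highest mean level of any member in the classes tested. Gbp4 had 1176, 1190 and 949 CPM, against 24.1 CPM, and rose by 5.57 (SE 0.35, edgeR adjusted p = 0.0033). Gbp6 had 97.9, 102 and 160 CPM, against 0.305 CPM on 2 UMIs, a ratio of 384 (106 to 3173), and Gbp10 131, 133 and 99.8 CPM, against 0.457 CPM on 3 UMIs, a ratio of 270 (92.2 to 1311). Both ratios rest on a base of few isograft UMIs and are known only within wide intervals. A low base by itself makes a ratio large, so no link between baseline and change is drawn. Gbp9, the member with the highest baseline, had 184, 177 and 216 CPM, against 59.6 CPM, and rose by 1.74 (SE 0.22, edgeR adjusted p = 0.0228). That call was lost without replicate 1 (edgeR adjusted p = 0.0975) or replicate 2 (edgeR adjusted p = 0.106). Gbp7, with a like baseline of 56.4 CPM, rose by 3.63 (SE 0.25, edgeR adjusted p = 0.0041).

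Gbp2b did not pass in endothelial cells. It had 34.8, 48.3 and 32.4 CPM in allogeneic replicates 1, 2 and 3, against 27.1 CPM in the isograft, a log2 change of 0.57 (SE 0.31, edgeR adjusted p = 0.354). Without replicate 3 it was called (0.73, edgeR adjusted p = 0.00918), and with cells carrying 2 or more markers of a second class left out its change was -0.16.

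In fibroblasts 9 of 10 members rose, where 1.88% of 15200 genes rose and 0.533% fell, with a median log2 change of 6.06. Gbp2 had 1443, 1405 and 1413 CPM in allogeneic replicates 1, 2 and 3, against 10.4 CPM in the isograft, and rose by 7.0 (SE 0.53, edgeR adjusted p = 1.3e-04). Gbp8 had 145, 146 and 145 CPM, against 0.931 CPM, and rose by 7.19 (SE 0.47, edgeR adjusted p = 9.4e-05). The allogeneic libraries hardly differed although replicate 1 held 30 fibroblasts and replicate 3 held 1155. Gbp4 rose by 8.82 (SE 0.60, edgeR adjusted p = 9.4e-05), to 666, 582 and 394 CPM, against 1.12 CPM in the isograft. Gbp2b again did not pass, with 20.5, 16.8 and 17.2 CPM against 7.20 CPM (log2 change 1.24, SE 0.42, edgeR adjusted p = 0.224).

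In T cells 0 of 10 members passed, where 0% of 13861 genes were called. Without adjustment 1832 genes had a p under 0.05, DESeq2 called 251 genes but 0 members, and with 36 isograft T cells the median change of all genes was 0.57. Gbp7 had 109, 113 and 139 CPM in allogeneic replicates 1, 2 and 3, against 70.5 CPM in the isograft. Gbp3 had 63.5, 69.9 and 79.5 CPM, against 79.3 CPM, and Gbp4 72.5, 75.7 and 122 CPM, against 88.1 CPM. For both, the isograft value lay within the range of the allogeneic libraries. Gbp2 had 60.9, 80.1 and 185 CPM, against 17.6 CPM on 2 UMIs, with replicate 3 well above the others. Gbp10 had 6.06, 8.13 and 13.5 CPM, against 44.0 CPM on 5 UMIs, so every allogeneic library lay below the isograft. Without replicate 3, 1390 genes were called, and Gbp10 was then lower by a log2 change of -2.48 (SE 0.70, edgeR adjusted p = 0.0325).

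**Figure D2:**
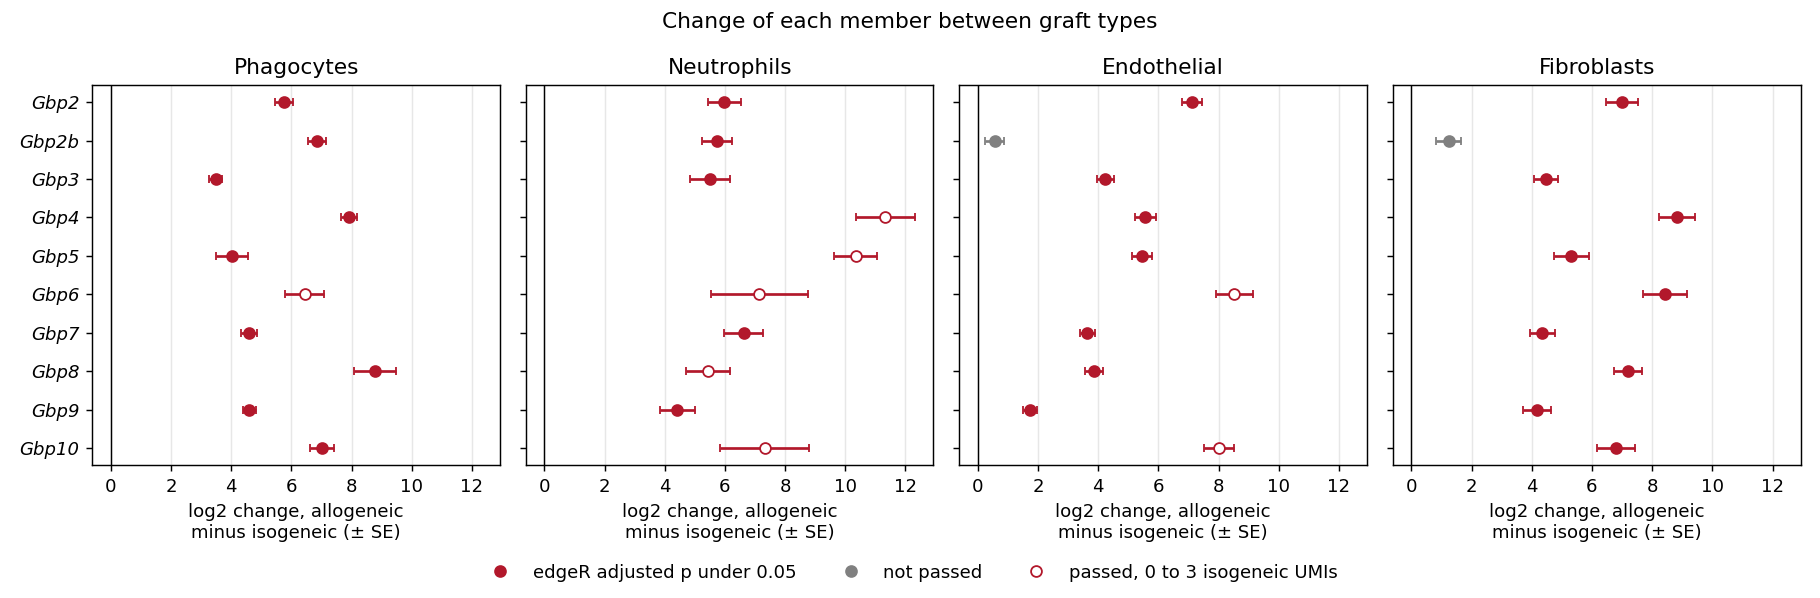
Log2 change, allogeneic minus isogeneic, with its SE (horizontal axis) for each member (vertical axis) in 4 cell classes, in red where the edgeR adjusted p was under 0.05 and open where the isograft had 0 to 3 UMIs, so that the position depends on the prior count. Gbp2b in endothelial cells (0.57) and in fibroblasts (1.24) are the lowest points, followed by Gbp9 in endothelial cells (1.74).

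Whether the allogeneic change differed between classes was tested as an interaction with phagocytes, in 1 edgeR fit over 5 classes with library as a block. Gbp2b changed less in endothelial cells than in phagocytes, by -6.27 (SE 0.54, edgeR adjusted p = 2.0e-05), and less in fibroblasts, by -5.56 (SE 0.53, edgeR adjusted p = 1.1e-04). In endothelial cells Gbp8 (-4.88, SE 0.62, edgeR adjusted p = 0.00146) and Gbp9 (-2.84, SE 0.42, edgeR adjusted p = 0.00543) also changed less. In all, 3 members changed less in endothelial cells, where 0.306% of 16646 genes did, and 1 in fibroblasts, where 0.15% did. Without replicate 2 the calls for Gbp8 (edgeR adjusted p = 0.0704) and Gbp9 (edgeR adjusted p = 0.257) were lost, while Gbp2b passed in both classes with any replicate left out. In the allografts endothelial cells and fibroblasts come from the donor, so for Gbp2b a difference between strains in the sequence that is counted and a difference in transcript level cannot be told apart. The isograft levels of Gbp8 and Gbp9 differed in the same classes, Gbp8 being at 12 CPM in endothelial cells and 0.535 CPM in phagocytes.

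In neutrophils 1 member, Gbp5, changed more than in phagocytes (6.29, SE 1.04, edgeR adjusted p = 0.0237), where 0.0481% of genes did. This rests on 1 isograft UMI in neutrophils and was lost without replicate 1 (edgeR adjusted p = 0.0621) or replicate 2 (edgeR adjusted p = 0.217). In T cells 5 members changed less than in phagocytes, where 0.439% of genes did. They were Gbp3, Gbp4, Gbp7, Gbp9 and Gbp10, on 5 to 10 isograft T cell UMIs each. The count was 2 without replicate 1 and 1 without replicate 2.

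The make-up of the family differed with class and graft. In allograft phagocytes Gbp2b held 24.2% ± 0.665 of the family's UMIs and Gbp2 18.2% ± 1.32 (SD, n = 3), against 7.62% and 12.3% in isograft phagocytes. In allograft endothelial cells Gbp2 held 44.0% ± 2.57 and Gbp2b 0.560% ± 0.115, against 8.95% and 10.8% in isograft endothelial cells. Gbp2 held 45.9% ± 0.185 in allograft fibroblasts, against 20.1% in isograft fibroblasts. In allograft neutrophils Gbp5 was the largest part, at 30.3% ± 3.08, against 1.82% in isograft neutrophils. The leading member of allograft endothelial cells and fibroblasts was therefore Gbp2, of phagocytes Gbp2b and of neutrophils Gbp5.

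**Figure D3:**
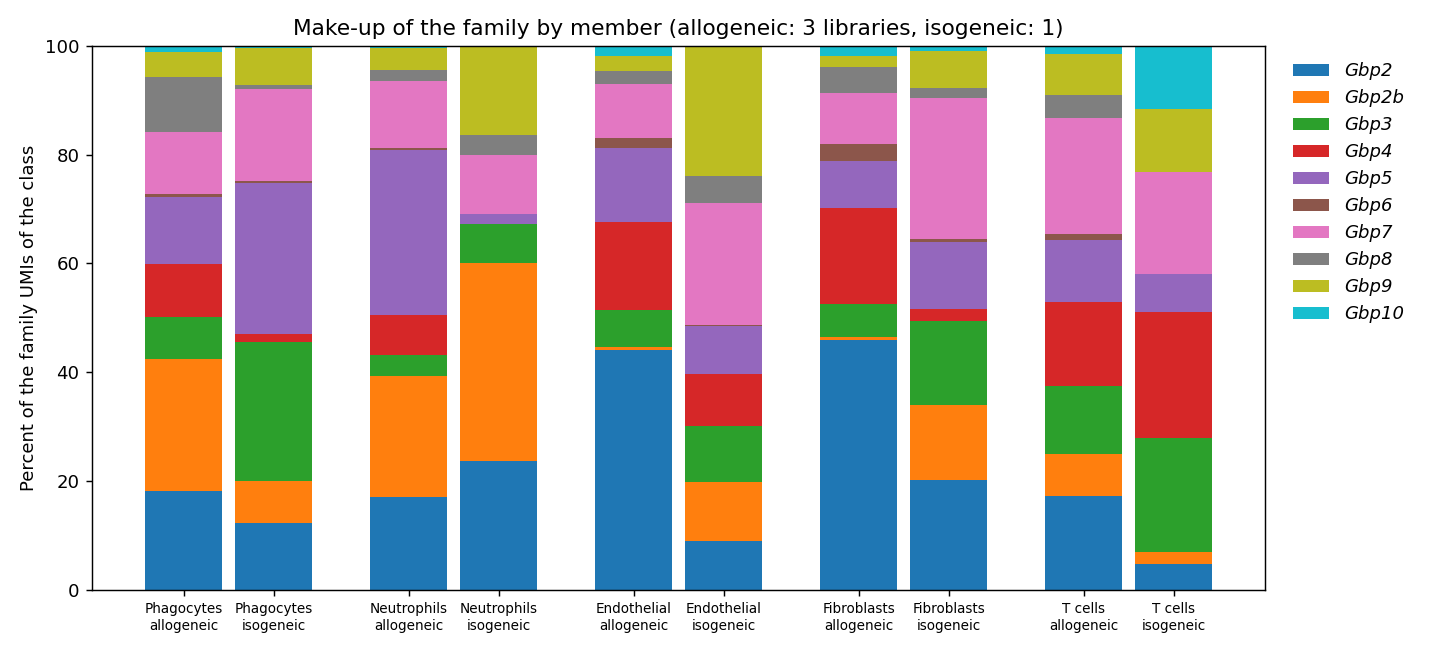
Share of each member in the family's UMIs (vertical axis, percent) by class and graft (horizontal axis), as the mean of 3 allogeneic libraries or the value of the isograft. Gbp2 (blue) fills 44.0% of allograft endothelial cells and 45.9% of allograft fibroblasts, where Gbp2b (orange) is a sliver, and Gbp2b takes 24.2% in allograft phagocytes.

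Class preference within the allografts was tested against phagocytes in 1 edgeR fit over 6 classes of the 3 allogeneic libraries, with library as a block. Classes differ in a large part of all genes, so the share of genes called is given with each count. Endothelial cells had 8 members higher than phagocytes, where 21.6% of 13413 genes were higher, and 2 lower, where 25.6% were lower. Neutrophils had 9 higher (15.7% of genes) and 0 lower (18.6%). Fibroblasts had 4 higher (22.6%) and 3 lower (26.8%). T cells had 10 lower (29.3%) and 0 higher (24.9%), and NK cells 9 lower (25.3%) and 0 higher (15.8%). The calls at the edge were those of Gbp6, Gbp8, Gbp9 and Gbp10, with those of Gbp8 and further ones of Gbp9 given below. In T cells Gbp6 was lost without the library block (-1.04, edgeR adjusted p = 0.171), without replicate 1 (edgeR adjusted p = 0.0987) and without replicate 2 (edgeR adjusted p = 0.0809). In NK cells Gbp9 was lost with RLE scaling (edgeR adjusted p = 0.0515), total UMIs (edgeR adjusted p = 0.284), without replicate 1 (edgeR adjusted p = 0.0675) and without replicate 2 (edgeR adjusted p = 0.0656). In neutrophils Gbp10 was lost without a filter, with second-class cells left out, with total UMIs and without replicate 2 or replicate 3 (edgeR adjusted p from 0.0710 to 0.386), and Gbp6 without replicate 2 (edgeR adjusted p = 0.0695). In fibroblasts Gbp10 was lost without replicate 2 (edgeR adjusted p = 0.0850).

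Gbp2b split the classes most. It averaged 1926 ± 52.1 CPM in neutrophils, 38.5 ± 8.57 CPM in endothelial cells, 18.2 ± 2.02 CPM in fibroblasts and 44.4 ± 7.08 CPM in T cells, against 533 ± 55.6 CPM in phagocytes (SD, n = 3 each). The differences from phagocytes were 2.19 in neutrophils, -4.16 in endothelial cells, -5.13 in fibroblasts and -3.93 in T cells, with edgeR adjusted p of 4.4e-05, 1.8e-08, 1.0e-08 and 3.0e-08. Its levels in T cells, endothelial cells and NK cells overlapped across libraries.

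Gbp2, its neighbour on chromosome 3, ran the opposite way against phagocytes in the vessel wall and stroma. It averaged 3024 ± 223 CPM in endothelial cells, 1488 ± 201 CPM in neutrophils and 1421 ± 20.2 CPM in fibroblasts, against 402 ± 56.3 CPM in phagocytes (SD, n = 3 each). The difference was 2.59 in endothelial cells (edgeR adjusted p = 5.7e-07) and 1.60 in fibroblasts (edgeR adjusted p = 1.1e-04). Neutrophils and fibroblasts overlapped across libraries, and endothelial cells lay above both.

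Gbp6 leaned furthest to the non-leukocyte classes. Its difference from phagocytes was 2.90 in endothelial cells (SE 0.32, edgeR adjusted p = 4.9e-07) and 2.71 in fibroblasts (SE 0.33, edgeR adjusted p = 1.8e-06), from levels of 120 ± 34.9 and 99.5 ± 36.8 CPM, against 12.7 ± 4.47 CPM in phagocytes (SD, n = 3 each). Gbp10 and Gbp4 were also higher than in phagocytes, by 1.97 and 2.02 in endothelial cells and by 0.97 and 1.12 in fibroblasts. For Gbp4, however, the mean of neutrophils (646 CPM) lay above that of fibroblasts (548 CPM), and their libraries overlapped. Gbp5 leaned to neutrophils, by 3.67 (SE 0.32, edgeR adjusted p = 1.2e-07), and Gbp7 did so by 2.43 (SE 0.19, edgeR adjusted p = 3.6e-08).

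Among the 6 classes compared, Gbp8 was the member whose highest mean allograft level was in phagocytes, at 223 ± 62.4 CPM, and it was lowest against them in T cells (-3.54, edgeR adjusted p = 5.8e-09) and NK cells (-3.26, edgeR adjusted p = 9.4e-08). It was also lower in endothelial cells (-0.75, edgeR adjusted p = 0.0178) and fibroblasts (-0.85, edgeR adjusted p = 0.00899). The endothelial difference was lost with RLE scaling (edgeR adjusted p = 0.0666) or total UMIs (edgeR adjusted p = 0.205), the fibroblast difference with RLE scaling (edgeR adjusted p = 0.0672) or total UMIs (edgeR adjusted p = 0.0509), and both without replicate 1 or replicate 2. The endothelial difference was also lost with cells carrying 2 or more markers of a second class left out (edgeR adjusted p = 0.0812). Gbp9 was the member with the smallest called difference in endothelial cells (0.59, edgeR adjusted p = 0.0388), which was lost without the library block (edgeR adjusted p = 0.0627), without a filter, with the stricter gate, with second-class cells left out and without replicate 1 or replicate 2. In fibroblasts Gbp9 was lower than in phagocytes (-0.80, edgeR adjusted p = 0.00799), a call lost with RLE scaling and without replicate 1 or replicate 2. In replicate 3 Gbp8 stood at 202 CPM in endothelial cells and 153 CPM in phagocytes, the reverse of the order in replicates 1 and 2. Over the 10 members the highest mean level among the 6 classes was in endothelial cells for 5, in neutrophils for 4 and in phagocytes for 1.

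**Figure D4:**
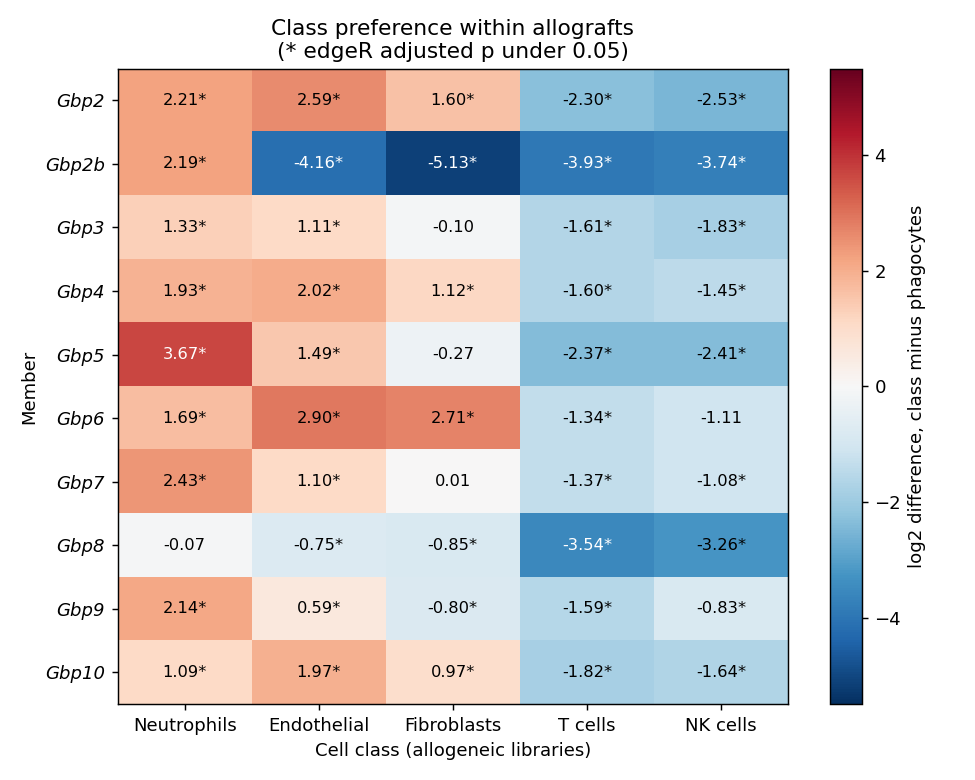
Log2 difference between each class and phagocytes within the allogeneic libraries (columns) for each member (rows), red where higher and blue where lower, with a star where the edgeR adjusted p was under 0.05. The Gbp2b row is dark blue in every class but neutrophils, and the T cell and NK cell columns are blue throughout.

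Free RNA in a droplet suspension can put transcripts of abundant cells into others, so markers of phagocytes were read in every class. Of the genes C1qa, C1qb and C1qc, which encode complement subunits made by macrophages, 3 of 3 were detected in each class. Their sum in endothelial cells was 2.91% to 6.22% of the phagocyte level in the allogeneic libraries and 2.19% in the isograft. Gbp2b in endothelial cells was 5.62% to 10.3% of its phagocyte level in the allogeneic libraries and 563% in the isograft. In fibroblasts the C1q genes stood at 2.24% to 3.88% in the allogeneic libraries and 0.922% in the isograft, and Gbp2b at 2.97% to 3.71% and 150%. In allograft endothelial cells Gbp2b was at 6.30%, 10.3% and 5.62% in replicates 1 to 3, against 6.22%, 5.73% and 2.91% for the C1q genes. In allograft fibroblasts it was at 3.71%, 3.57% and 2.97%, against 3.88%, 3.60% and 2.24%. In fibroblasts Gbp2b thus stood near the C1q share. In endothelial cells it did so in replicate 1 and stood above that share in replicates 2 and 3. The list of phagocyte markers also held Apoe, and the reading depends on it. With Apoe added, the markers stood at 7.93%, 17.1% and 14.7% in allograft fibroblasts of replicates 1 to 3, above Gbp2b in each. In allograft endothelial cells they stood at 6.33%, 6.36% and 5.09%, and in the isograft at 16.3% in fibroblasts and 4.94% in endothelial cells. The other 9 members were at 52.9% or more of the phagocyte level in both classes of the allografts. In neutrophils the C1q genes reached 3.56% to 21.8% in the allogeneic libraries and 2.52% in the isograft, and in T cells 1.06% to 6.05% and 1.35%. Gbp2b in allograft T cells was at 7.03% to 9.07% of the phagocyte level. The part of free RNA in these Gbp2b values and in the T cell values was not tested.

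**Figure D5:**
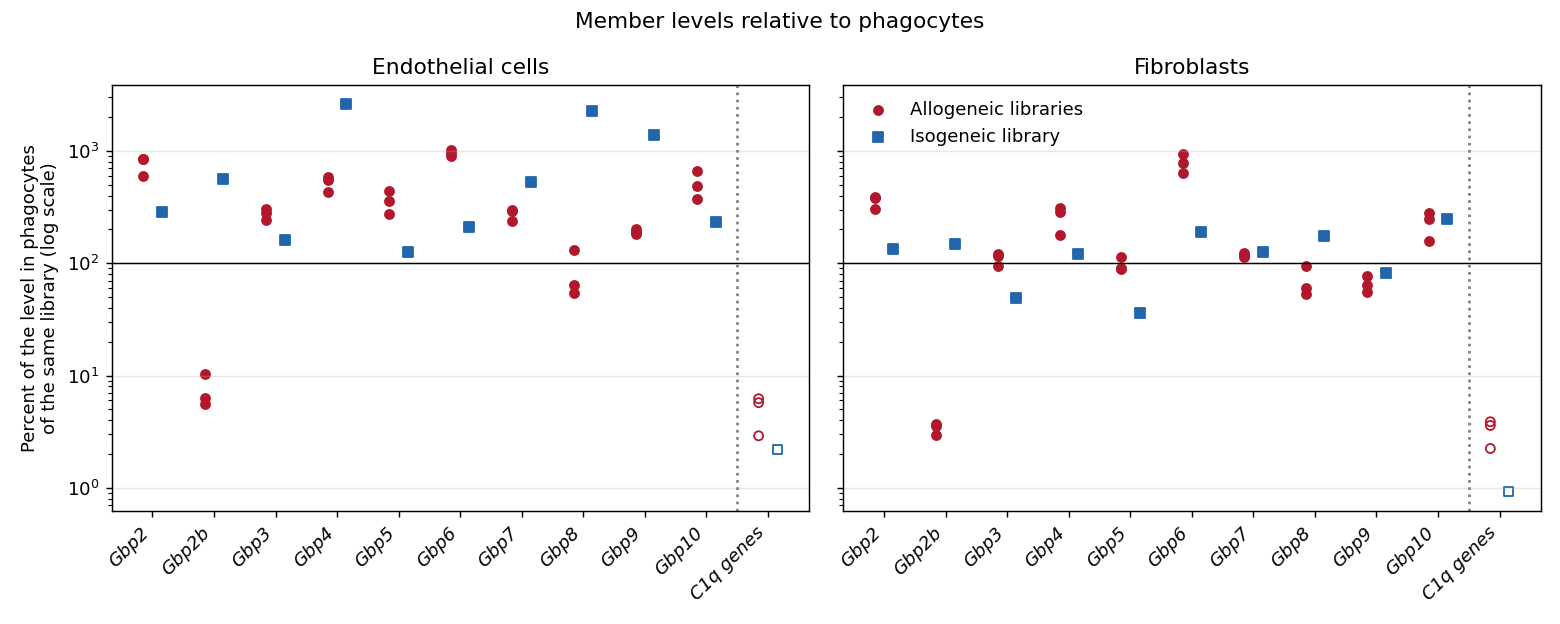
Level of each member in endothelial cells and fibroblasts as a percent of its level in phagocytes of the same library (vertical axis, log scale, line at 100), with the summed C1q genes at the right of each panel as open symbols. Allogeneic libraries (red) have Gbp2b at 2.97% to 10.3%, against 2.24% to 6.22% for the C1q genes. The isograft (blue) has Gbp2b at 150% and 563%.

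The share of cells with at least 1 UMI of any member was read after thinning each cell to 1500 UMIs. In endothelial cells it was 99.6%, 99.9% and 91.3% in allogeneic replicates 1, 2 and 3, against 31.3% in the isograft, and in phagocytes 93.1%, 88.9% and 88.0%, against 8.63%. Neutrophils had 100%, 97.5% and 98.6%, against 12.7%, and T cells 46.5%, 50.4% and 55.9%, against 38.1%. Cells under that depth were left out: 212 allograft and 161 isograft endothelial cells, 647 and 136 phagocytes, 64 and 175 neutrophils, and 136 and 15 T cells. At the same depth a C1q UMI was found in 41.7%, 47.3% and 12.3% of allograft endothelial cells, against 8.06% in the isograft, and in 70.6%, 65.4% and 14.3% of allograft neutrophils, against 8.18%. In T cells it was found in 41.8%, 44.6% and 7.43%, against 23.8%. The family's share lay above the C1q share in each of these libraries, by little in T cells of replicates 1 and 2, and the part of free RNA in it was not tested. For single members in endothelial cells, Gbp2 was found in 92.7% ± 7.36 of allograft cells (SD, n = 3), against 4.08% of isograft cells, and Gbp2b in 3.91% ± 0.798, against 3.88%. In phagocytes Gbp2b was found in 47.6% ± 3.19 of allograft cells, against 0.735% of isograft cells. The thinned share of T cells with a Gbp2b UMI was 5.79% to 7.18% in the allografts, above the 3.15% to 4.74% of endothelial cells.

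Genes that act upstream of the family and genes that work with it were read from lists. Of 8 upstream genes (Ifng, Ifngr1, Ifngr2, Jak1, Jak2, Irf1, Irf8 and Ciita), 3 rose in phagocytes, 2 in neutrophils, 5 in endothelial cells, 2 in fibroblasts and 0 in T cells, and 0 fell in any of these classes (edgeR). Over all genes tested, 1.63% rose in phagocytes, 4.46% in neutrophils, 2.42% in endothelial cells, 1.88% in fibroblasts and 0% in T cells. Irf1 rose in phagocytes, neutrophils and endothelial cells, with 638, 609 and 631 CPM in allograft phagocytes, against 97.5 CPM in isograft phagocytes. The 5 of endothelial cells include Ifng, with 23.8, 11.8 and 29.3 CPM, against 0.152 CPM on 1 UMI, and the T cell markers Cd8a, Cd8b1, Cd4 and Trbc1 together stood there at 0.758% to 3.58% of their T cell level in the allogeneic libraries and 0.0360% in the isograft. Cd8b1 was at 0 UMIs in allogeneic replicate 3, and in the isograft the 4 markers gave 1 UMI, of Trbc1. The part of free RNA in that value was not tested. Irf1 had 767, 803 and 879 CPM in allograft endothelial cells, against 121 CPM in isograft endothelial cells. Ifng, the gene for interferon-gamma, had 620, 472 and 6244 CPM in allograft T cells, against 167 CPM on 19 UMIs in isograft T cells. Replicate 3 was far above the others. Its family level was 838 CPM in T cells, against 451 and 497 CPM in replicates 1 and 2, 2395 CPM in phagocytes, against 2219 and 2000.5 CPM, and 6715 CPM in endothelial cells, against 6887 and 6986 CPM.

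Of 12 genes that act with the family, Gm12250 was not analysed here. Of the other 11 (Casp1, Casp4, Gsdmd, Aim2, Nlrp3, Pycard, Irgm1, Irgm2, Igtp, Iigp1 and Tgtp1), 5 rose in phagocytes, 7 in neutrophils, 6 in endothelial cells, 6 in fibroblasts and 0 in T cells, and 0 fell (edgeR). The shares of all genes that rose are those given with the upstream genes. The immunity-related GTPases Irgm1, Irgm2, Igtp, Iigp1 and Tgtp1 were those that rose in each of the first 4 classes. Inflammasome genes were called in single classes: Casp4, which encodes a sensor of bacterial lipopolysaccharide, in endothelial cells (364, 438 and 327 CPM in the allogeneic libraries, against 55.5 CPM), Casp1 and Pycard in neutrophils, and Gsdmd, which encodes the pore protein of pyroptosis, in fibroblasts. Other classes came close to the threshold. Casp4 rose by 1.65 in neutrophils (edgeR adjusted p = 0.0501) and Pycard by 2.83 in fibroblasts (edgeR adjusted p = 0.0535). Gsdmd rose by 1.69 in phagocytes (edgeR adjusted p = 0.0505) and by 2.28 in neutrophils (edgeR adjusted p = 0.0664). Casp1 rose by 1.51 in phagocytes (edgeR adjusted p = 0.0671). No test of differences between classes is given, so none of these genes is shown to be particular to a class. Aim2 and Nlrp3 were called in none of the 5 classes (edgeR).

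Across 32 sums of a library and a class, genes whose log2(CPM + 1) ran most like the mean of the family included Parp14 (r = 0.951), Irgm1 (0.948), Ifi47 (0.940) and Igtp (0.937), among 9263 genes with a mean of at least 10 CPM. These correlations are descriptions, since sums share libraries and depth. Within the family Gbp4 and Gbp7 ran closest together (r = 0.934), although they lie on different chromosomes. Gbp2b ran closest to Gbp5 (r = 0.686) and was the least similar member for 8 of the other 9.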

How the data were processed

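Per the labels' protocols, the 3′ Chromium Next GEM kit was used. The authors deposited raw counts, whole numbers of UMIs per gene and barcode, not normalized. Cell Ranger is at version 3.1.0 (build mm10) per the submitters' processing notes and at 6.1.0 per the file headers. Neither the version behind the counts nor the use of strand is settled by these sources. Of 34097 gene identifiers, 32403 were found in GENCODE M21.

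Barcodes under 500 UMIs or 300 genes, or over 20% mitochondrial UMIs, were left out. No doublet caller was run; the marker lead leaves out cells with near-equal markers of other classes but not all mixed cells, and barcodes with most UMIs (0.8% per 1000 barcodes) were left out as an alternative. Classes were gated by markers as the report describes, and UMIs summed per library and class were tested with edgeR 4.0.16 (TMM scaling, filterByExpr, library as a block between classes) in R 4.3.3, for classes of 20 or more cells in every library. Each SE was derived from the log2 change and the F statistic. DESeq2 1.42.0, other scalings and gates, and leaving out each allogeneic replicate were alternatives. The scripts were tested on simulated data. Poisson and binomial intervals and the floor of 3 UMIs cover counting error only. All 10 members were named, and pathway genes came from fixed lists, of which 1 gene is not reported here. The members and lists were chosen with earlier results of these data known, so no list is independent evidence of its direction.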

Additional observations from a re-analysis of the deposited data

Results flagged for a closer look

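The allogeneic change of 10 combinations of a member and a class differed from that of phagocytes in the edgeR interaction fit. On the log2 scale, class minus phagocytes, the differences were -6.27 for Gbp2b, -4.88 for Gbp8 and -2.84 for Gbp9 in endothelial cells, -5.56 for Gbp2b in fibroblasts and 6.29 for Gbp5 in neutrophils. In T cells they were -3.41 for Gbp3, -7.66 for Gbp4, -3.60 for Gbp7, -4.43 for Gbp9 and -9.08 for Gbp10, each on 10 or fewer isograft UMIs in T cells. Gbp4 and Gbp10 also had few isograft UMIs in phagocytes, 19 and 4.

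Cells that passed no gate entered no comparison. The family took 2284 ± 90.6 CPM of their UMIs in the allogeneic libraries (SD, n = 3), against 77.1 CPM in the isograft, a ratio of 29.6. These 7423 cells lay in every library, and 3701 of them failed only by too small a lead over a second class.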

How the results depend on the processing

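Of the values of single members under the alternatives, 1004 kept direction and side of the threshold, 65 lost the call, 13 gained one and 16 changed sign, none of the last called as reported. T cells in the allogeneic against isogeneic comparison are not in this tally. Gbp2b in endothelial cells, allogeneic minus isogeneic, was -0.16 with cells of a second class left out. Against phagocytes within allografts, Gbp3 in fibroblasts was 0.18 with RLE scaling and 0.13 with total UMIs, Gbp5 in fibroblasts 0.011 with RLE scaling, and Gbp7 in fibroblasts -0.0064 without a filter, -0.095 with second-class cells left out, -0.010 with the stricter gate and -0.055 without replicate 3. Gbp8 in neutrophils was 0.17 with RLE scaling, -0.40 to 0.080 with a replicate left out (0.073 without replicate 1, 0.080 without replicate 2). In the interaction, Gbp10 in fibroblasts was 0.010 with the stricter gate and -0.44 to 0.16 with a replicate left out (0.16 without replicate 1), and Gbp2 in neutrophils 0.081 with total UMIs and -0.14 to 0.17 with a replicate left out (0.12 without replicate 1, 0.17 without replicate 2). The cause was not tested.

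Counts of members called that moved by over 1.5 times with an allogeneic replicate left out were these: higher in phagocytes 0 to 10 and lower in T cells 0 to 1 (allogeneic against isogeneic); lower than phagocytes 1 to 2 in endothelial cells and 1 to 3 in fibroblasts; in the interaction, lower in T cells 1 to 5, higher in endothelial cells 0 to 3, lower in endothelial cells 1 to 5, higher in fibroblasts 0 to 3, lower in fibroblasts 1 to 2 and higher in neutrophils 0 to 1. Smaller moves were higher in endothelial cells 8 to 10 and in neutrophils 8 to 10 (allogeneic against isogeneic), and against phagocytes higher in endothelial cells 7 to 8, in neutrophils 7 to 9 and in fibroblasts 3 to 4, lower in T cells 9 to 10 and in NK cells 8 to 9. Members lower than phagocytes in endothelial cells numbered 1 with RLE scaling, with total UMIs and with second-class cells left out, and in fibroblasts 1 with RLE scaling. Without thinning, cells with a member UMI were 88.8% of allograft T cells, 96.9% of allograft and 23.3% of isograft phagocytes, 58.7% of isograft endothelial cells and 34.0% of isograft fibroblasts.

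No paired analysis was possible because the allogeneic and isogeneic groups share only replicate number 2. Between classes of the same libraries the library was a block, and without that replicate block Gbp9 in endothelial cells was 0.59 and Gbp6 in T cells -1.04 against phagocytes, both no longer called. A single isogeneic library, 36 isograft T cells and 30 fibroblasts in allogeneic replicate 1 limit what can be seen. Phagocyte calls numbered 345 genes with all libraries, 0 without replicate 1, 31 without replicate 2 and 8614 without replicate 3; the cause was not tested. Allogeneic against isogeneic, DESeq2 called 1883 genes in phagocytes, 794 in endothelial cells, 490 in fibroblasts and 223 in neutrophils, where edgeR called 345, 402, 367 and 231.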

Other observations

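Gbp11, which the GENCODE annotation lists as a polymorphic pseudogene and which is no member of the list, was counted too. In endothelial cells it had 42.7, 52.2 and 62.1 CPM in allogeneic replicates 1, 2 and 3, against 0.152 CPM on 1 UMI in the isograft, a ratio of 344 with a counting interval of 61.6 to 13627. In fibroblasts it had 32.8, 35.5 and 44.2 CPM, against 0.465 CPM, and in phagocytes 8.26, 7.51 and 9.24 CPM, against 0 UMIs. The phagocyte mean was 57.2-fold the floor of 3 UMIs, and the lowest allogeneic library 51.5-fold. Every allogeneic library lay above the isograft in these classes. Whether its UMIs come from its own transcript or from near copies in the family was not tested.

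Classes too small for a test showed the family as well. Mural cells, the contractile cells around vessels, numbered 7, 25 and 30 in allogeneic replicates 1 to 3, against 183 in the isograft. The family took 6796, 4129 and 4352 CPM of their UMIs in allogeneic replicates 1, 2 and 3, against 65.0 CPM in the isograft. Gbp2 made up 43.0% ± 3.48 of the family in allograft mural cells and Gbp2b 0.465% ± 0.126 (SD, n = 3), against 34.9% and 15.9% in isograft mural cells. In allograft migratory dendritic cells, 8, 9 and 23 in number, Gbp5 was the largest part, at 30.5% ± 4.20, and Gbp2b made up 19.7% ± 3.97.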
